A study of Mus musculus with 21 samples.

Results

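Cell cycle genes were examined in the kidneys of mice fed adenine with or without iodomethylcholine (IMC), an inhibitor of the bacterial enzyme that makes trimethylamine from choline. The 48 genes were a list of 18 genes of S phase and 30 genes of mitosis, taken by symbol. The list was chosen with earlier results of these data known. All 48 were found among the 20634 genes present in both count tables. RNA was sequenced from whole kidneys of female apoE knockout mice on a C57BL/6J background, which started the diets at 4 weeks of age and were 18 weeks old after 14 weeks. The 3 groups were 5 mice on the control diet (Con), 6 mice on the adenine diet (Ade) and 6 mice on the adenine diet with IMC (Ade + IMC). All of them lacked apoE, the controls included. Adenine feeding injures the renal tubules and is used as a model of chronic kidney disease. The libraries held 7716126 to 11680809 counted reads in the Con group, 5444833 to 7673215 in the Ade group and 5728589 to 8305968 in the Ade + IMC group. Levels are given as CPM, the reads of a gene scaled to a common library size, with TMM factors over the 17 mice. In bulk RNA, more cells in cycle and more RNA of these genes per cell cannot be told apart.

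Dividing cells copy their DNA in S phase and separate it in mitosis, and each step has its own genes. Cyclin E and the E2F factors start S phase, the MCM helicase opens the double helix, PCNA clamps the polymerase to the template, and ribonucleotide reductase, thymidylate synthase and thymidine kinase supply deoxynucleotides. Cyclin B with CDK1 then drives the cell into mitosis, where the Aurora and Polo kinases, the kinesins and the spindle checkpoint align and part the chromosomes before cytokinesis. In the adult kidney few tubule cells divide, and division increases after tubular injury. Immune cells that divide use the same genes.

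Havcr1, which encodes the tubular injury protein KIM-1 and served as a check of the labels, had a level of 0.504 ± 0.284 CPM (mean ± SD) in the Con group, 153 ± 82.99 CPM in the Ade group and 86.6 ± 71.95 CPM in the Ade + IMC group. Proximal tubule markers, summed over 8 genes, were at 1915 CPM or more in every mouse.

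Promoters are shown first, because mitosis and S phase genes are known to be controlled through different elements. Promoters of mitosis genes often have CCAAT boxes, bound by NF-Y, and a cell cycle genes homology region (TTTGAA or TTTAAA), bound by the MuvB complexes, whereas S phase genes often have E2F sites. RefSeq windows from 250 bases before to 50 bases after the start (GRCm38.p6) were found for 40 of the 48 genes, of which 4 had 2 windows. Kif20a, Foxm1, Ccna2, Mcm4, Cdc25c, Ccne2, Aurkb and Tpx2 had no entry. Both strands were searched. CCAAT was present in 22 of 26 windows of mitosis genes (84.6%), 12 of 18 windows of S phase genes (66.7%) and 37.4% of all 32851 windows. TTTGAA or TTTAAA was present in 24 of 26 windows of mitosis genes (92.3%), 7 of 18 windows of S phase genes (38.9%) and 27.6% of all 32851 windows. An E2F type site (TTTCCCGC, TTTCGCGC, TTTGCCGC or TTTGGCGC, whose matches can overlap on opposite strands) was present in 1 of 26 windows of mitosis genes (3.85%), 6 of 18 windows of S phase genes (33.3%) and 2.26% of all 32851 windows. A match of letters is a description and does not show binding.

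The 160 bases before the start are given for 4 mitosis genes, of which Mki67, Top2a and Ccnb2 were higher in the Ade group and Ect2 was not called. Capitals mark matches of the 3 elements, on either strand. The bases lie at chr7:135716380-135716539, minus strand (Mki67), chr11:99024190-99024349, minus strand (Top2a), chr9:70421555-70421714, minus strand (Ccnb2) and chr3:27153879-27154038, minus strand (Ect2).
Mki67: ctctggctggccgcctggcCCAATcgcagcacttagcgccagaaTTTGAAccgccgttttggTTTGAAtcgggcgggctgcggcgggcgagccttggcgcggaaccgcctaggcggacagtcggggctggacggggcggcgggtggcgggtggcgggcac
Top2a: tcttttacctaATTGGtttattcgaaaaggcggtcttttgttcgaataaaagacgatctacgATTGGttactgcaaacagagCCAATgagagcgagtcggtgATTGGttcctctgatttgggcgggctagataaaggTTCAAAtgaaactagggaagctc
Ccnb2: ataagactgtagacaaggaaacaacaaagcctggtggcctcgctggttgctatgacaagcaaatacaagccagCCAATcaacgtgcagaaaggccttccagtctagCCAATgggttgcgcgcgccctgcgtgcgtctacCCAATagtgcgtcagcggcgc
Ect2: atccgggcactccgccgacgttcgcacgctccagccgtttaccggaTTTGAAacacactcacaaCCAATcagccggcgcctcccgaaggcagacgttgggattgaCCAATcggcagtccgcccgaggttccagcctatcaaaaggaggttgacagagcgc
Top2a had 4 CCAAT matches in these bases and Ccnb2 had 3. Ect2 held 2 CCAAT matches and 1 match of TTTGAA or TTTAAA, although it did not pass the test in the Ade group.

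The same bases are given for 3 S phase genes, Mcm5 (chr8:75109349-75109508, plus strand), Mcm6 (chr1:128359706-128359865, minus strand) and Tyms (chr5:30073626-30073785, minus strand), because Tyms stood apart from the other S phase genes in its values.
Mcm5: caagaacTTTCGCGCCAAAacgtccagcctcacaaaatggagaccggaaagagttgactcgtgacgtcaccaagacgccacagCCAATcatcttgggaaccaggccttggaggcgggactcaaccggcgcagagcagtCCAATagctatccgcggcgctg
Mcm6: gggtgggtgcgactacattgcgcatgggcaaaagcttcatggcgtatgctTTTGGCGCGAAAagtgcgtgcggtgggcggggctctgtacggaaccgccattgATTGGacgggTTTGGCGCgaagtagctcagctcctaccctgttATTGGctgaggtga
Tyms: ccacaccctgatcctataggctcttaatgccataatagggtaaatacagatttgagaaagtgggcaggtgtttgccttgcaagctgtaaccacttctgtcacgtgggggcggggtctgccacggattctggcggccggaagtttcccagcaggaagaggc
Mcm5 held 2 E2F type matches and Mcm6 held 3. The Tyms bases held none of the 3 elements, which says only that these letters are not in them. The windows of E2f1 and Mybl2 and of the mitosis gene Nusap1, which were called higher in the Ade group, held none of them either.

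Nearly the whole list was higher with adenine. Compared with the Con group, 16 of 18 S phase genes and 28 of 30 mitosis genes were higher in the Ade group by edgeR's quasi-likelihood test with a Benjamini-Hochberg adjusted p-value below 0.1, and 0 were lower. Of all 14612 genes tested, 35.1% were called higher and 32.2% lower. The median log2 fold change was 1.02 for the S phase genes and 2.84 for the mitosis genes, against 0.02 for all genes tested. The genes that were not called were Ccne2, Tyms, Kif23 and Ect2. All Ade mice were above all Con mice for 15 S phase and 28 mitosis genes, as they were for 22.4% of all genes. Among the called genes Mybl2 alone had overlapping ranges.

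**Figure D1:**
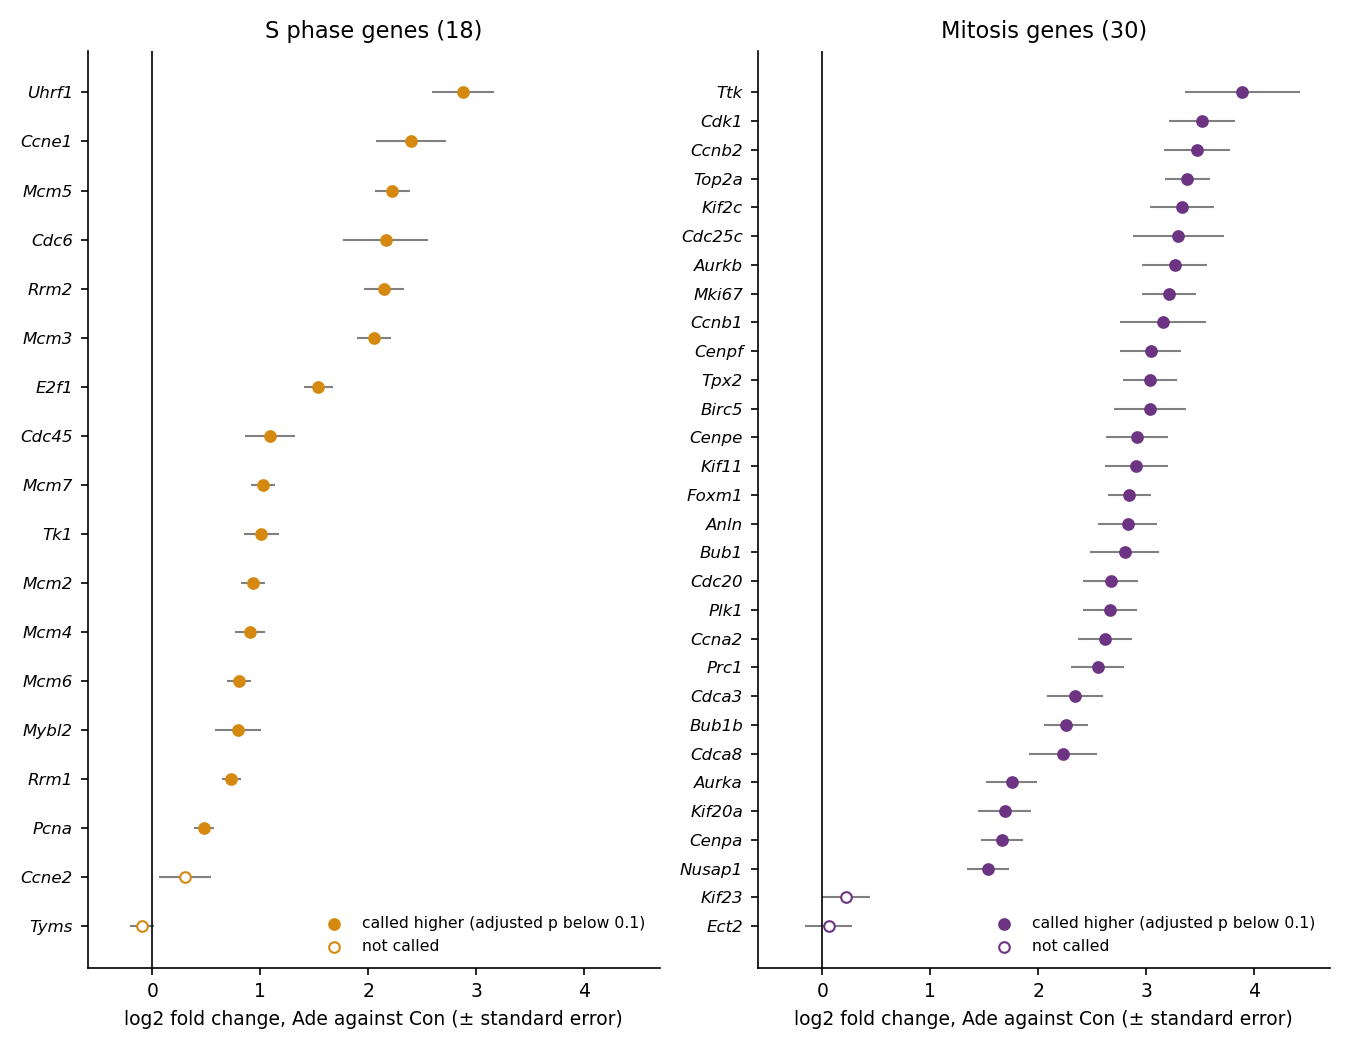
Log2 fold change of the Ade group against the Con group (horizontal axis, with its standard error) for each of the 18 S phase genes and 30 mitosis genes, filled where called. The called mitosis genes lie between 1.53 (Nusap1) and 3.89 (Ttk), and Tyms, Ccne2, Ect2 and Kif23 are open points near 0.

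The difference was visible in each kidney when the levels of the genes were summed. The 30 mitosis genes together had 79.4 to 105 CPM in the Con mice (median 104), 325 to 642 CPM in the Ade mice (median 469) and 227 to 719 CPM in the Ade + IMC mice (median 329). The 18 S phase genes had 171 to 186 CPM in the Con mice (median 179.5), 295 to 421 CPM in the Ade mice (median 369.9) and 229.7 to 535 CPM in the Ade + IMC mice (median 283). Every mouse fed adenine, with or without IMC, was above every Con mouse for both sums. Mouse 407 was the lowest and mouse 308 the highest Ade mouse for both sums, and mouse 412 and mouse 311 were the lowest and highest Ade + IMC mice.

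**Figure D2:**
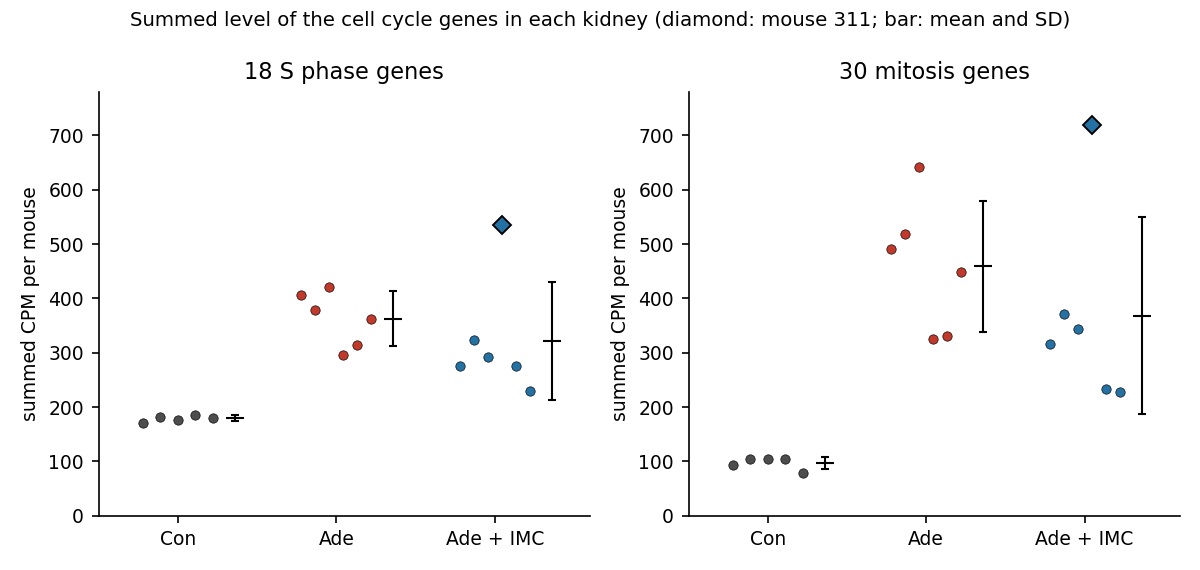
Summed CPM of the 18 S phase genes and of the 30 mitosis genes in each of the 17 kidneys by group, with the group mean and SD beside the points. The Con mice lie below all others, and mouse 311 (diamond) lies above the other Ade + IMC mice at 535 CPM and 719 CPM.

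Levels were also divided by the annotated exonic length of each gene, with all its exons merged. This length was 2400 bases for Pcna and 11012 bases for Rrm1. It need not be that of the transcripts present, so the order of the genes depends on it. Per kilobase, the highest mean levels in the Ade group were those of Pcna (11.1 CPM per kb), Mcm6 (9.99 CPM per kb), Rrm2 (8.37 CPM per kb) and Mki67 (7.80 CPM per kb). The lowest were those of Cdc25c (0.379 CPM per kb), Ttk (0.648 CPM per kb) and Ccnb1 (0.656 CPM per kb). In the Con group Pcna was at 8.05 CPM per kb, Mcm6 at 5.81 CPM per kb and Mki67 at 0.853 CPM per kb.

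Genes that start S phase differed among themselves. Ccne1 (chr7:38097984-38107534), which encodes cyclin E1, was at 0.303, 0.866, 0.948, 0.520 and 1.18 CPM in the Con mice and at 3.12 to 6.35 CPM in the Ade mice (median 3.44). All Ade mice were above all Con mice, with a log2 fold change of 2.40 ± 0.33 (standard error; edgeR, adjusted p = 3.28e-05). Ccne2 (chr4:11191351-11204779), which encodes cyclin E2, was at 2.02, 3.18, 2.57, 3.12 and 3.40 CPM in the Con mice and at 2.16 to 4.51 CPM in the Ade mice (median 3.86). Its ranges overlapped and its log2 fold change of 0.30 ± 0.24 was not called (edgeR, adjusted p = 0.285). Of its exonic bases 17.4% lie on exons of Ints8, on the opposite strand, and some called genes such as Cdc25c (12.7%) also have such overlaps. E2f1 (chr2:154559407-154569892), an activator of S phase genes, was at 3.73, 5.05, 5.01, 4.55 and 3.92 CPM in the Con mice and at 11.2 to 13.9 CPM in the Ade mice (median 12.8). The groups were apart, with a log2 fold change of 1.54 ± 0.13 (edgeR, adjusted p = 5.55e-07). Uhrf1 (chr17:56303321-56323486), which maintains DNA methylation at the replication fork, was at 2.42, 2.17, 1.63, 2.99 and 2.35 CPM in the Con mice and at 9.06 to 27.3 CPM in the Ade mice (median 15.7). It had the largest fold change of the S phase genes, 2.88 ± 0.29 on the log2 scale (edgeR, adjusted p = 2.38e-06). Mybl2, the B-Myb factor, rose by less, with a log2 fold change of 0.79 (edgeR, adjusted p = 0.00545).

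All 6 subunits of the MCM helicase were higher in the Ade group (all genes, 35.1% higher and 32.2% lower), with log2 fold changes from 0.80 (Mcm6) to 2.22 (Mcm5). Mcm5 (chr8:75109569-75128439), a subunit of the ring, was at 6.06, 5.05, 5.15, 4.68 and 4.18 CPM in the Con mice and at 17.99 to 28.98 CPM in the Ade mice (median 23.2), with a log2 fold change of 2.22 ± 0.16 (edgeR, adjusted p = 1.47e-07). The log2 fold changes of Mcm3 (2.05) and Mcm5 were larger than those of Mcm2 (0.94), Mcm4 (0.90), Mcm6 and Mcm7 (1.03), and the difference between subunits was not tested. In the Con group the mean was 5.02 CPM for Mcm5 and 6.48 CPM for Mcm3, and in the Ade group it was 23.2 CPM and 26.5 CPM. Of the genes that act with the helicase, the loading factor Cdc6 had a log2 fold change of 2.16 and Cdc45, which joins the active helicase, of 1.09. Pcna (chr2:132249162-132253314), the sliding clamp, was at 17.8, 19.5, 19.5, 21.04 and 18.8 CPM in the Con mice and at 22.8 to 30.7 CPM in the Ade mice (median 26.7). The groups were apart, but its log2 fold change of 0.48 ± 0.09 was the smallest among the called genes (edgeR, adjusted p = 0.000523). The annotation holds the pseudogenes Pcna-ps1 and Pcna-ps2, and how reads shared with such copies were counted is not given in the sources used here.

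The 4 genes of deoxynucleotide synthesis did not all rise. Rrm2 (chr12:24708241-24714146), the regulated subunit of ribonucleotide reductase, was at 5.15, 5.05, 6.50, 5.97 and 3.92 CPM in the Con mice and at 15.96 to 29.2 CPM in the Ade mice (median 24.3). Its log2 fold change was 2.14 ± 0.19 (edgeR, adjusted p = 6.08e-07), and that of Rrm1, the large subunit, was 0.73 (edgeR, adjusted p = 8.45e-06). Tk1 (chr11:117815526-117826092), thymidine kinase, was at 10.3, 10.8, 10.3, 10.5 and 12.7 CPM in the Con mice and at 14.3 to 26.6 CPM in the Ade mice (median 22.4), with a log2 fold change of 1.01 ± 0.16 (edgeR, adjusted p = 0.00012). Tyms (chr5:30058202-30073617), thymidylate synthase, was at 16.5, 17.3, 16.8, 19.1 and 21.4 CPM in the Con mice and at 14.6 to 19.2 CPM in the Ade mice (median 15.96). The ranges overlapped, and the log2 fold change was -0.10 ± 0.11 (edgeR, adjusted p = 0.457). Tyms was the one gene of the 48 with a fitted change below 0, and the annotation holds the pseudogene Tyms-ps.

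Most mitosis genes had larger fold changes. Mki67 (chr7:135689784-135716361), which encodes the Ki-67 protein of mitotic chromosomes, the usual marker of cells in cycle, was at 8.68, 8.81, 7.85, 11.04 and 6.53 CPM in the Con mice and at 48.5 to 129 CPM in the Ade mice (median 74.9). All Ade mice were above all Con mice, with a log2 fold change of 3.21 ± 0.25, that is 9.27-fold (edgeR, adjusted p = 2.32e-07). Top2a (chr11:98992943-99024189), the topoisomerase that disentangles sister chromatids, was at 4.74, 5.20, 3.66, 6.88 and 4.44 CPM in the Con mice and at 35.8 to 74.01 CPM in the Ade mice (median 51.1). The groups were apart, and the log2 fold change was 3.38 ± 0.21 (edgeR, adjusted p = 3.56e-08).

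All 6 genes of the cyclin and CDK group of G2 and mitosis were higher (all genes, 35.1%), with a median log2 fold change of 3.23. Cdk1 (chr10:69335146-69352938), the mitotic kinase, was at 1.11, 1.16, 1.08, 1.95 and 1.44 CPM in the Con mice and at 8.52 to 21.6 CPM in the Ade mice (median 15.9). Its log2 fold change of 3.52 ± 0.30 was a 11.5-fold increase (edgeR, adjusted p = 6.19e-07). Ccnb1 (chr13:100778650-100786570), which encodes cyclin B1, was at 0.505, 0.289, 0.135, 0.260 and 0.261 CPM in the Con mice and at 1.62 to 4.01 CPM in the Ade mice (median 2.69). The Con libraries held 1 to 5 reads of it each, and the log2 fold change was 3.15 ± 0.40 (edgeR, adjusted p = 1.72e-05). The annotation also holds the pseudogenes Ccnb1-ps and Ccnb2-ps. The other genes of the group were the cyclins Ccnb2 (3.47) and Ccna2 (2.61), the phosphatase Cdc25c (3.30, with 1 to 3 reads in each Con library) and the transcription factor Foxm1 (2.84).

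The mitotic kinases and the chromosomal passenger complex were higher in 5 of 5 genes (all genes, 35.1%). Plk1 (chr7:122159439-122169873), the Polo kinase, was at 2.52, 2.17, 1.63, 1.17 and 1.96 CPM in the Con mice and at 7.71 to 16.2 CPM in the Ade mice (median 11.7), a log2 fold change of 2.66 ± 0.25 (edgeR, adjusted p = 1.29e-06). Birc5 (chr11:117849251-117855743), which encodes survivin of the passenger complex, was at 0.908, 0.866, 2.30, 1.17 and 1.31 CPM in the Con mice and at 5.68 to 16.04 CPM in the Ade mice (median 10.1), a log2 fold change of 3.04 ± 0.33 (edgeR, adjusted p = 5.34e-06). For both genes the lowest Ade mouse was above the highest Con mouse. The log2 fold change was 3.26 for Aurkb, the kinase of the same complex, 2.23 for Cdca8 (borealin) and 1.75 for Aurka, the centrosomal kinase.

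In the spindle checkpoint and anaphase group all 5 genes were higher, compared with 35.1% of all genes called higher and 32.2% called lower. Ttk (chr9:83834689-83872389), the checkpoint kinase MPS1, was at 0, 0.433, 0, 0.390 and 0.261 CPM in the Con mice and at 1.87 to 4.58 CPM in the Ade mice (median 3.17). Its log2 fold change of 3.89 ± 0.53 was the largest of the 48 genes (edgeR, adjusted p = 3.39e-05), but a Con library held at most 3 reads of it. The others were the checkpoint genes Bub1 (2.80) and Bub1b (2.26), the activator of the anaphase-promoting complex Cdc20 (2.67) and Cdca3 (2.34). Among the kinesins and spindle proteins 6 of 6 were higher (all genes, 35.1%), from 1.53 (Nusap1) to 3.33 (Kif2c, a kinesin that depolymerizes microtubules). Of the centromere genes 3 of 3 were higher (all genes, 35.1%), with log2 fold changes of 3.04 (Cenpf), 2.91 (Cenpe) and 1.66 (Cenpa). For Kif20a (1.69), 29.3% of the exonic bases lie on exons of Cdc23, on the opposite strand.

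Of the 3 genes of cytokinesis 1 was called, a share near the 35.1% of all genes called higher. Anln (chr9:22332012-22389188), which encodes the scaffold anillin, was at 1.41, 2.02, 1.63, 2.47 and 1.05 CPM in the Con mice and at 7.71 to 16.6 CPM in the Ade mice (median 11.9), a log2 fold change of 2.83 ± 0.28 (edgeR, adjusted p = 1.89e-06). Ect2 (chr3:27097222-27153878), the exchange factor that activates RhoA at the cleavage furrow, was at 14.8, 6.79, 7.45, 10.4 and 6.79 CPM in the Con mice and at 6.86 to 12.2 CPM in the Ade mice (median 9.59). Its log2 fold change of 0.06 ± 0.22 was not called (edgeR, adjusted p = 0.828), and its sign turned when mouse 202, 301, 403 or 207 was left out. Kif23 (chr9:61915905-61946774), the kinesin of the central spindle, was at 17.6, 31.3, 36.97, 20.9 and 18.7 CPM in the Con mice and at 21.5 to 43.1 CPM in the Ade mice (median 26.7), with a log2 fold change of 0.22 ± 0.22 that was not called (edgeR, adjusted p = 0.409). The ranges of both genes overlapped between the groups.

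**Figure D3:**
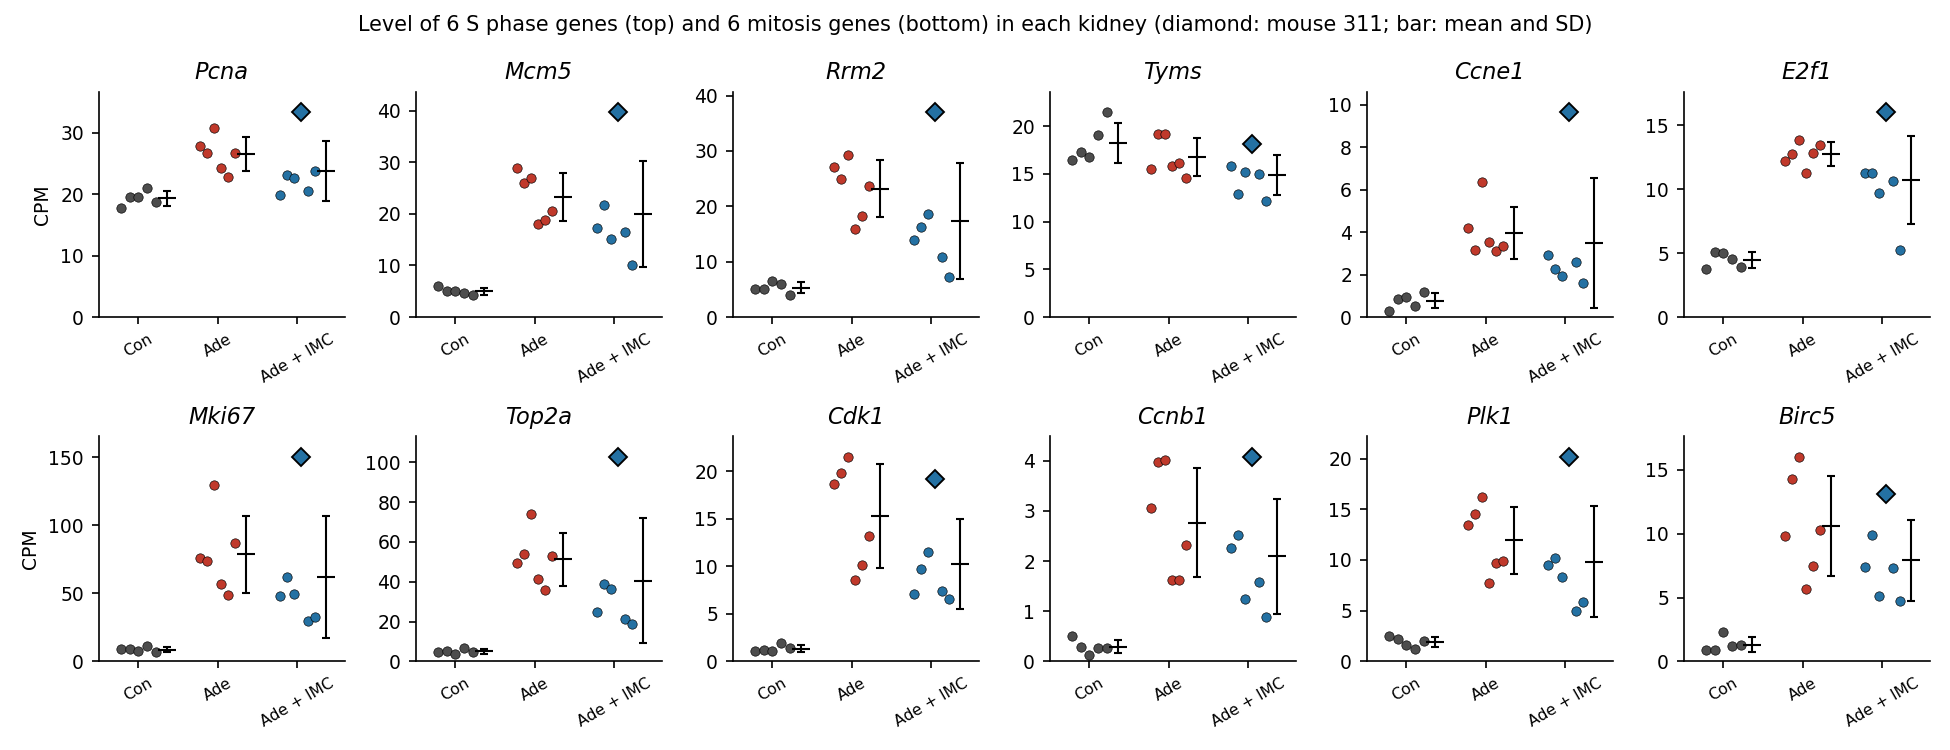
CPM of Pcna, Mcm5, Rrm2, Tyms, Ccne1 and E2f1 (top) and of Mki67, Top2a, Cdk1, Ccnb1, Plk1 and Birc5 (bottom) in each of the 17 mice, with the group mean and SD beside the points. The Con and Ade points are apart in every panel except that of Tyms, and mouse 311 is drawn as a diamond.

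The mouse numbers start with 2, 3 or 4, and each of these digits occurs in all 3 groups. The labels do not say what it marks. Within the digits 2, 3 and 4 the median difference between the Ade and Con mice in log2(CPM + 1) was 1.16, 1.03 and 0.71 for the S phase genes and 2.30, 2.41 and 1.88 for the mitosis genes. The digit 3 held 1 Ade mouse and the digit 4 held 1 Con mouse.

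The genes were also higher than in the Con mice when IMC was given with adenine. Of the S phase genes 15 were higher and 1 lower, and of the 29 mitosis genes tested 27 were higher, by limma on log2 CPM with an adjusted p-value below 0.1. Of all 14578 genes 30.9% were called higher and 32.5% lower. The median log2 fold change was 0.74 for the S phase genes and 2.10 for the mitosis genes. These values are on another scale than those of edgeR above, since limma with its prior count gave medians of 0.98 and 2.52 for the Ade group against the Con group, and edgeR gave 0.78 and 2.44 for the Ade + IMC group. Mki67 had a log2 fold change of 2.58 ± 0.33 (limma, adjusted p = 2.19e-05), Cdk1 of 2.61 ± 0.26 (adjusted p = 3.2e-06) and Mcm5 of 1.80 ± 0.27 (adjusted p = 6.97e-05). The gene called lower was Tyms, at -0.32 ± 0.12 (limma, adjusted p = 0.0363), which was at -0.22 and not called without mouse 412 (adjusted p = 0.119). Pcna (0.26, adjusted p = 0.1003), Ccne2 (0.08), Kif23 (0.15) and Ect2 (-0.35) were not called, and Cdc25c had too few reads for this test. Pcna lay at the threshold and was called higher with edgeR, DESeq2, upper quartile scaling, a prior count of 0.5 or the block of mouse numbers, and without mouse 211, 410 or 412. All Ade + IMC mice were above all Con mice for 9 S phase and 27 mitosis genes, as they were for 20.5% of all genes. The comparisons with the Con mice share those mice.

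Whether IMC changed the levels reached with adenine was read from the Ade + IMC mice against the Ade mice. By limma on log2(normalized count + 1), a scale that understates the change of low genes, 0 of the 48 genes and 0 of all 14696 genes were called. The study itself reported both down-regulated and up-regulated genes for this comparison, with DESeq2 at the same threshold. The reason for this difference was not tested. At an unadjusted p-value below 0.05, 3.35% of all genes were lower and 3.37% higher. Of the 48 genes Tk1 and Anln were lower at that level and 0 were higher. The fitted change was below 0 for all 18 S phase and all 30 mitosis genes, compared with 48.4% of all genes. The median was -0.19 for the S phase genes, -0.41 for the mitosis genes and 0.01 for all genes. These genes were measured in the same mice and are not separate observations. The ranges of the groups overlapped for all 48 genes, and were apart with the Ade + IMC mice lower for 0.0953% of all genes.

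**Figure D4:**
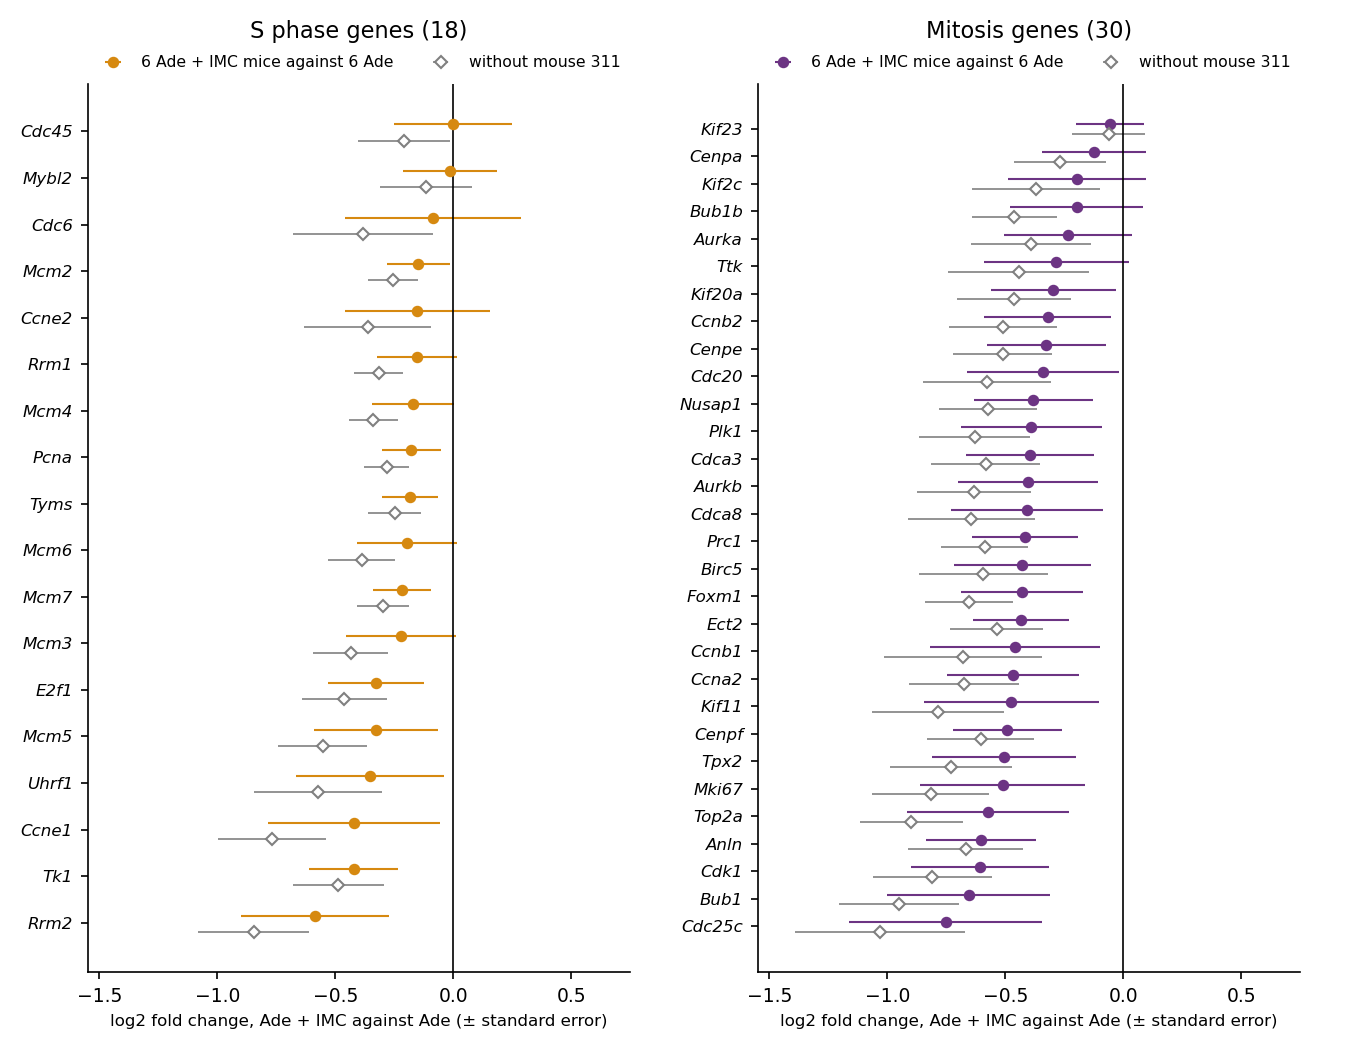
Log2 fold change of the Ade + IMC group against the Ade group (horizontal axis, with its standard error) for the 18 S phase and 30 mitosis genes, with all mice (filled) and without mouse 311 (open diamonds). All points lie below 0, and the open points lie between -0.06 (Kif23) and -1.03 (Cdc25c).

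Levels in single mice show the overlap. Anln was at 7.71 to 16.6 CPM (median 11.9) in the Ade mice and at 4.54 to 10.1 CPM (median 7.98) in the Ade + IMC mice, with a log2 fold change of -0.60 ± 0.23 (limma, adjusted p = 0.711). Tk1 was at 14.3 to 26.6 CPM (median 22.4) in the Ade mice and at 11.9 to 21.9 CPM (median 15.4) in the Ade + IMC mice, with a log2 fold change of -0.42 ± 0.19 (limma, adjusted p = 0.731). In both genes the lowest mouse was an Ade + IMC mouse and the highest an Ade mouse. Ect2, which was not called between the Ade and Con mice, was at 4.997 to 10.5 CPM (median 6.49) in the Ade + IMC mice, with a log2 fold change of -0.43 ± 0.20 against the Ade mice (limma, adjusted p = 0.741). Rrm2 was at 7.18 to 36.96 CPM (median 15.1) in the Ade + IMC mice, with a log2 fold change of -0.59 ± 0.31 (limma, adjusted p = 0.749) that ranged from -0.85 to -0.37 when single mice were left out, the ends being without mouse 311 and without mouse 412. The Ade + IMC range of Rrm2 enclosed that of the Ade mice.

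For Mki67 the Ade + IMC mice were at 29.9 to 150.2 CPM (median 48.6), with a log2 fold change of -0.51 ± 0.35 against the Ade mice (limma, adjusted p = 0.796). It ranged from -0.82 to -0.34 when single mice were left out, the ends being without mouse 311 and without mouse 410. Top2a was at 18.9 to 103 CPM (median 30.7), Cdk1 at 6.60 to 19.2 CPM (median 8.56), Ccnb1 at 0.880 to 4.08 CPM (median 1.92), Plk1 at 5.01 to 20.2 CPM (median 8.90) and Birc5 at 4.69 to 13.2 CPM (median 7.36). The medians of these 6 genes were all below those of the Ade mice. Of the S phase genes Mcm5 was at 10.1 to 39.7 CPM (median 16.9), Ccne1 at 1.61 to 9.64 CPM (median 2.42), E2f1 at 5.28 to 15.99 CPM (median 10.9) and Uhrf1 at 7.04 to 26.4 CPM (median 12.3). Pcna was at 19.8 to 33.3 CPM (median 22.9), Ccne2 at 1.45 to 6.35 CPM (median 3.19) and Tyms at 12.2 to 18.1 CPM (median 15.1). Ttk was at 1.32 to 4.31 CPM (median 2.53) and Kif23 at 22.5 to 29.5 CPM (median 27.9). The median coefficient of variation was 45.4% for the mitosis genes and 38.96% for the S phase genes in the Ade + IMC group, 30.6% and 17.9% in the Ade group, and 31.8% and 13.7% in the Con group.

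Mouse 311 stood apart in its group. It was the highest Ade + IMC mouse for 43 of the 48 genes and the highest of all 17 mice for 32, the exceptions within its group being Tk1, Mybl2, Kif23, Anln and Ect2. Mouse 412 was the lowest of the group for 29 genes and mouse 410 for 16. In the Ade group mouse 308 was the highest for 31 genes and mouse 407 the lowest for 26. Without mouse 311, 13 S phase and 22 mitosis genes were lower at an unadjusted p-value below 0.05 (all genes, 5.25%), 0 were called, and the medians were -0.37 and -0.60. Leaving out the highest mouse of a group lowers that group by construction.

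When the leading digit of the mouse numbers was fitted as a block, 3 mitosis genes and 0 S phase genes were called lower in the Ade + IMC group, compared with 0.408% of all genes called lower and 0.497% called higher. These were Cenpf, a kinetochore protein, with a log2 fold change of -0.63 ± 0.13 (limma, adjusted p = 0.0697), Cdk1 with -0.80 ± 0.18 (adjusted p = 0.0906) and Anln with -0.72 ± 0.16 (adjusted p = 0.0976). With the block and without mouse 311, which was chosen after the values were seen, 5 S phase and 18 mitosis genes were called lower (all genes, 1.83% lower and 2.03% higher). On the recovered reads with the block, DESeq2 called 2 S phase and 7 mitosis genes lower (all genes, 1.2% lower and 1.57% higher) and edgeR called 1 mitosis gene lower (all genes, 0.362% and 0.348%). Without the block DESeq2 called 0 of the 48 genes, with 0.0752% of all genes lower and 0.0987% higher, and edgeR called 0 genes. The DESeq2 shares are of 21287 genes, those with few reads included, and the edgeR shares of 14657 genes, so they are not on a like basis. Within the digits 2, 3 and 4 the difference was below 0 for 46, 40 and 48 of the 48 genes, compared with 49.7%, 49.5% and 49.9% of all genes. The medians within the digits were -0.61, -0.41 and -0.62 for the mitosis genes and -0.37, -0.15 and -0.34 for the S phase genes.

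Markers of other cell types moved with the groups. Summed over 8 genes, macrophage markers were at 215 to 256 CPM in the Con mice, 1450.0 to 2376 CPM in the Ade mice and 1311 to 2209.6 CPM in the Ade + IMC mice. T cell markers were at 9.07 to 16.1, 73.5 to 247 and 71.5 to 364 CPM in the same order, and B and plasma cell markers at 5.46 to 12.9, 33.3 to 1014 and 67.4 to 2897 CPM. All 8 genes of each of these lists were higher in the Ade group than in the Con group (all genes, 35.1% higher and 32.2% lower), as were all 8 fibroblast markers (343 to 418, 2180.0 to 2698 and 1663 to 2447 CPM) and all 6 markers of injured tubules (1423 to 1801, 5361 to 17742 and 3039 to 11756 CPM). All 8 proximal tubule markers were lower (11819 to 16808, 1915 to 6954 and 3117 to 6141 CPM). Erythroid precursor markers, of which 3 were tested and 2 were lower in the Ade group, were at 14.7 to 21.7, 7.24 to 9.36 and 8.85 to 16.3 CPM. Of the markers present in both count tables, 0 were without reads in all mice of a group. A marker absent from a count table could not be counted here, and 5 of the 6 erythroid precursor markers chosen were found by symbol. Between the Ade + IMC and Ade groups, where 0 of all genes were called, the fitted change was below 0 for 6 of 6 injured tubule markers (median -0.96), 8 of 8 macrophage markers (median -0.26), 6 of 8 B and plasma cell markers (median -0.09), 5 of 8 T cell markers (median -0.04), 4 of 8 fibroblast markers (median 0.03) 2 of 8 proximal tubule markers (median 0.43) and 0 of the 2 erythroid precursor markers tested (median 0.90). Mouse 311 had the highest macrophage, T cell and B and plasma cell sums of its group (2209.6, 364 and 2897 CPM) and the lowest injured tubule and proximal tubule sums, and mouse 308 had the highest macrophage, T cell and B and plasma cell sums of the Ade group. The part of these cells in the levels of the cell cycle genes was not tested.

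**Figure D5:**
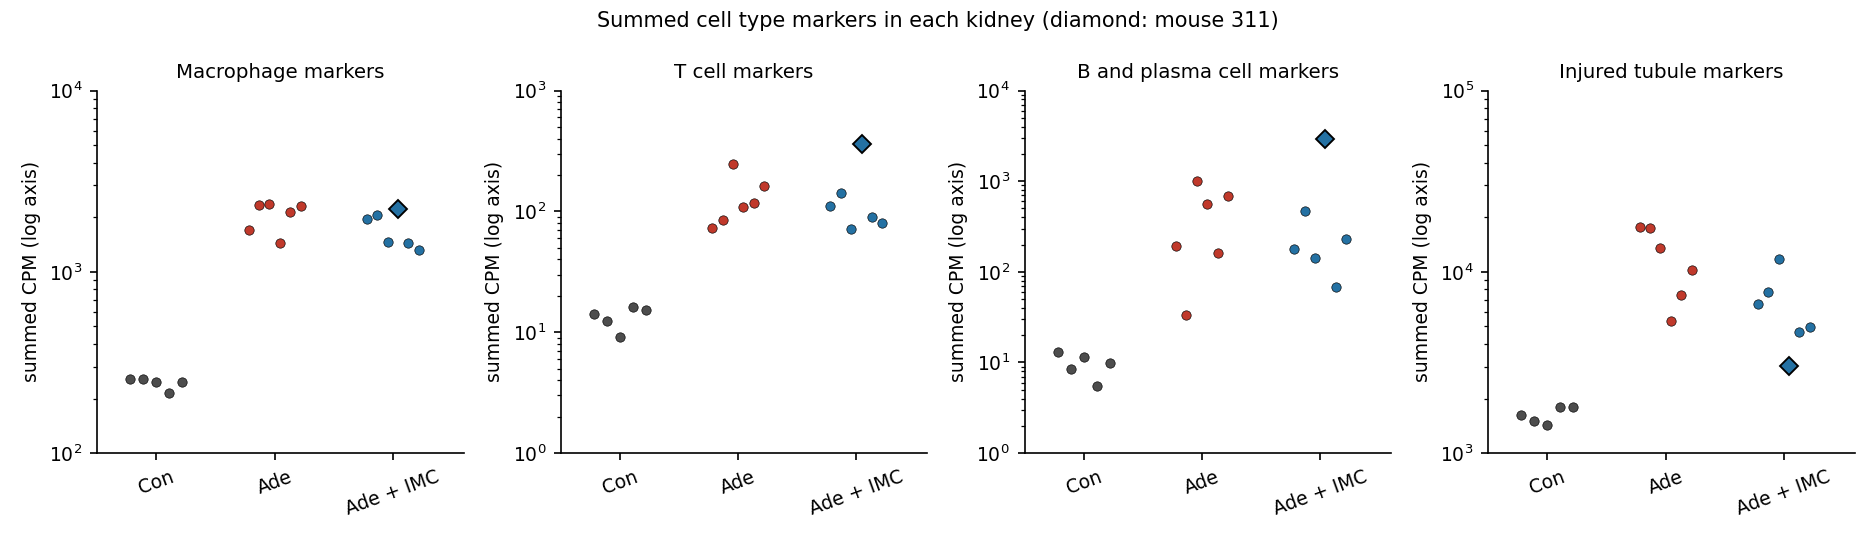
Summed CPM (log axis) of macrophage, T cell, B and plasma cell and injured tubule markers in each of the 17 mice by group. The Con mice lie below all others in each panel, and mouse 311 (diamond) has the highest B and plasma cell sum, 2897 CPM.

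Further genes of both phases were read from longer lists, to be set against the 35.1% of all genes called higher and 32.2% called lower in the Ade group. Of 30 other S phase genes 28 were tested between the Ade and Con mice, of which 20 were higher and 0 lower, with a median log2 fold change of 0.90. Those with the smallest p-values were the chromatin ATPase Atad2 (1.50), Chaf1b, a subunit of the histone chaperone CAF-1 (2.61), and Cdca7 (2.63). Of 31 other mitosis genes 30 were tested, of which 25 were higher and 2 lower, with a median of 1.62. Jpt1 (1.85), Ckap2l (3.21) and Dlgap5 (3.23), of which the latter pair are spindle proteins, had the smallest p-values among the higher genes. The genes called lower were Anp32e (-0.20) and Cbx5 (-0.27), chromatin proteins that also act outside mitosis. Between the Ade + IMC and Ade groups 0 genes of either list were called, and the fitted change was below 0 for 26 of 29 and 29 of 30 genes, compared with 48.4% of all genes. These are values of the same mice as those of the 48 genes and no separate observation.

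Of 9 cyclins and kinases of G1 and their regulators, 5 were higher and 1 lower in the Ade group, compared with 35.1% of all genes higher and 32.2% lower. The higher genes were Myc, with a log2 fold change of 1.88, Ccnd2 (1.09), Cdk4 (0.84), Cdk2 (0.58) and Skp2 (0.50), which targets the inhibitor p27 for degradation. The phosphatase Cdc25a was lower (-0.21), and Ccnd1, Ccnd3 and Cdk6 were not called (-0.25, -0.11 and 0.25). Of 12 inhibitors tested, genes that hold the cycle back, 7 were higher and 2 lower, beside the same 35.1% and 32.2% of all genes. With so few genes in either list, no difference from all genes is read from these counts. Cdkn1a, which encodes p21, had a mean of 13.9 CPM in the Con mice, 53.4 CPM in the Ade mice (log2 fold change of 1.97) and 40.9 CPM in the Ade + IMC mice. The log2 fold change was 1.33 for Cdkn2b (p15), 1.23 for Btg2, 0.78 for Cdkn2d, 0.75 for Cdkn2c, 0.71 for Gadd45a and 0.45 for Rbl1 (p107). The pocket proteins Rb1 (-0.71) and Rbl2 (-0.66) were lower, Cdkn1b, Cdkn1c and Wee1 were not called (-0.05, 0.23 and -0.05), and Cdkn2a was not tested. Between the Ade + IMC and Ade groups 0 of these genes were called, and Cdk6 had the smallest p-value, with a log2 fold change of -0.87 (limma, adjusted p = 0.601).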

How the data were processed

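RNA from whole kidneys of 17 of the 21 mice in the labels was analysed, and the 4 mice given the control diet with IMC were not analysed here. The authors deposited a table of raw counts per gene that covers Con and Ade, and a table of normalized counts that covers Ade and Ade + IMC, a signal made of gene counts divided by a size factor per library. The submitters' processing notes list Trimmomatic 0.39, FastQC 0.11.8, Bowtie2 2.2.5, HTSeq 0.9.1 and DESeq2, whereas the study's methods name another aligner, and the strand setting and annotation are not given in the sources used here. A deposited table of the authors' DESeq2 comparison (fold changes and p-values) served only to pair gene symbols with identifiers. Whole reads were recovered from the normalized counts (100% of values within 0.01 reads of a whole number), and 0 of 123804 recovered Ade values differed from the raw counts.

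The Ade and Con groups were compared with edgeR 4.0.16 (quasi-likelihood test, TMM, filterByExpr), the Ade + IMC and Ade groups with limma 3.58.1 on log2(normalized count + 1) where the mean over the 12 mice was at least 10, and the Ade + IMC and Con groups with limma on log2 CPM (prior count 2), in R 4.3.3. The threshold, taken from the study's methods, was an adjusted p-value (Benjamini-Hochberg, all genes tested) below 0.1. Lists were described by counts and medians, with no test. Alternatives were DESeq2 1.42.0, other normalizations, filters and pseudocounts, each mouse left out and the leading digit of the mouse numbers as a block. Fits with that block and without mouse 311, or with DESeq2 or edgeR, were added after seeing the data. The fits were tested on simulated data.

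Values of every Con mouse are given for 12 chosen genes and for the 2 of each list with the largest and the 2 with the smallest log2 fold change of Ade against Con, and the 2 with the smallest p-value of Ade + IMC against Ade. Of the longer lists the 3 genes with the smallest p-value in each direction were named. The members and lists were chosen with earlier results of these data known. The labels name separate mice, so p-values measure the spread between mice. Total counts per library set the precision, and genes with few reads in the Con libraries have uncertain fold changes.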

Additional observations from a re-analysis of the deposited data

Results flagged for a closer look

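In 26 of 144 groups of values (48 genes in 3 groups of mice) the highest or lowest mouse lay farther from the next than Dixon's 95% critical value allows. Chance flags about 1 in 20 groups, but the genes were measured in the same mice and move together, so these are not 26 separate observations. Mouse 311 was the highest Ade + IMC mouse in 20 of them. For the S phase genes it had Ccne1 at 9.64 CPM, Cdc6 at 10.2 CPM, Cdc45 at 10.2 CPM, Mcm3 at 46.3 CPM, Mcm4 at 44.1 CPM, Mcm6 at 78.2 CPM, Pcna at 33.3 CPM and Rrm1 at 58.7 CPM. For the mitosis genes it had Mki67 at 150.2 CPM, Top2a at 103 CPM, Ccna2 at 25.2 CPM, Ccnb2 at 15.2 CPM, Bub1 at 8.50 CPM, Bub1b at 29.9 CPM, Plk1 at 20.2 CPM, Nusap1 at 19.4 CPM, Kif11 at 30.4 CPM, Cenpe at 20.1 CPM, Foxm1 at 25.1 CPM and Prc1 at 25.4 CPM.

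In the Ade group mouse 308 had Ccne1 at 6.35 CPM, with the other mice at 3.12 to 4.19 CPM. Mouse 410 was the lowest Ade + IMC mouse for Kif23 at 22.5 CPM, with the other mice at 26.9 to 29.5 CPM. In the Con group Mcm6 was at 30.9 CPM in mouse 201, Tk1 at 12.7 CPM in mouse 403, Cdc25c at 0.433 CPM in mouse 202 and Cenpe at 3.12 CPM in mouse 302, each the highest of its group.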

How the results depend on the processing

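Without each mouse in turn, between the Ade and Con groups 16 S phase and 27 to 28 mitosis genes were called higher, with medians of 0.96 to 1.06 and 2.73 to 2.98. The count of 27 came from fits in which 29 mitosis genes were tested. With all mice, limma on log2 CPM gave a mitosis median of 2.52. Between the Ade + IMC and Ade groups 0 members were called in these fits, with medians of -0.37 to -0.13 and -0.60 to -0.28. With the leading digit of the mouse numbers as a replicate block, 3 mitosis genes were called lower. Of the fits with the block added after seeing the data, that without mouse 311 called 5 S phase and 18 mitosis genes lower, DESeq2 called 2 and 7, and edgeR called 1 mitosis gene. DESeq2 and edgeR without the block called 0 members. Mice were not matched 1 to 1, since the labels name no pairs, and the leading digit, which occurs in every group and whose meaning the labels do not give, was used as the block. Between the Ade + IMC and Con groups 0 to 1 S phase genes were called lower, and without mouse 412 the change of Tyms was -0.22. Over the fits without 1 mouse, the change of Ect2 between the Ade and Con groups ranged from -0.036 to 0.29 (-0.034 without mouse 202, -0.011 without mouse 301, -0.036 without mouse 403 and -0.0201 without mouse 207). Between the Ade + IMC and Ade groups that of Kif23 ranged from -0.13 to 0.069 (without mouse 308) and that of Ccne2 from -0.36 to 0.044 (without mouse 211). Against the Con group Ccne2 ranged from -0.12 (without mouse 311) to 0.27, with -0.0335 without mouse 201. The cause of these changes was not tested.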
